A study of Bos taurus with 8 samples.

Results

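The striated muscle miRNAs described here are bta-miR-1, bta-miR-133a, bta-miR-133b, bta-miR-206, bta-miR-208a, bta-miR-208b and bta-miR-499, written below without the prefix for cattle. They were chosen by name as miRNAs of muscle, with earlier results of these data known, and all 7 were among its 1028 bovine miRNAs. Reads were found for 4 of the 7 (miR-1, miR-206, miR-499 and miR-133a), and 3 of them (miR-1, miR-206 and miR-499) had a mean above 10 CPM. Small-RNA libraries had been made from extracellular vesicles of follicular fluid (FF-EVs), membrane-bound particles that cells of the follicle and the surrounding blood release. The fluid was aspirated from the ovaries of cycling, non-pregnant crossbred beef cows (Bos taurus) in August (SUM, the summer group, 4 libraries) and in January of the same year (WIN, the winter group, 4 libraries), so that season and order of sampling cannot be told apart. Each library came from a pool of 2 cows, the same cows were aspirated in both seasons, and all received a progesterone device, a GnRH analog and FSH before aspiration. Which WIN pool holds the cows of which SUM pool is not stated, so the 8 pools were compared as unrelated samples although cows are shared between seasons, and p-values measure the spread between pools.

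These miRNAs are the classical markers of skeletal and cardiac muscle fibres in mammals. miR-1 and miR-206 share a seed, the stretch that pairs with target mRNAs, and both promote differentiation of myoblasts in mice, while the miR-133 miRNAs are made from the same primary transcripts and act in proliferation and differentiation of myoblasts. miR-206 is largely a miRNA of skeletal muscle, and miR-208a, miR-208b and miR-499 are made from introns of myosin heavy chain genes in heart and slow muscle. By RefSeq's gene models for ARS-UCD2.0, a later assembly than the one used for mapping, MIR1-1 lies next to MIR133A-1, MIR1-2 next to MIR133A-2 and MIR206 next to MIR133B. MIR208A, MIR208B and MIR499 lie within MYH6, MYH7 and MYH7B in the same annotation. No sequences are shown, since none of these miRNAs is spelled out in the files used here.

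The values are TMM-adjusted CPM (reads scaled to library size) as deposited by the authors, and the reads behind them could be recovered. The SUM libraries held 214004 to 902642 miRNA reads and the WIN libraries 235340 to 1689467, so that 1 read was worth 0.567 to 4.02 CPM. SUM replicate 3 and WIN replicate 1 had the fewest reads. All 7 miRNAs together held 0.0866% ± 0.0101 of the miRNA reads in SUM and 0.131% ± 0.0225 in WIN (SD, n = 4 each). The lowest and highest shares were 0.0730% and 0.0972% in SUM and 0.114% and 0.164% in WIN, without overlap. Taken singly, 10.3% of the 243 miRNAs tested below also had lower shares in SUM without overlap, miR-1 among them. A further 5.76% had higher shares in SUM without overlap, so such a separation is not particular to the muscle miRNAs. Most reads of the 7 muscle miRNAs were miR-1, which held 61.5% to 87.2% of them in SUM and 69.6% to 96.1% in WIN. No test was made on the sum, since it follows miR-1.

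The muscle miRNAs differed widely in level, with miR-1 far above the others. By mean CPM over the 8 libraries, miR-1 (876 CPM) ranked 60 among the 545 detected miRNAs, miR-206 (115 CPM) 126, miR-499 (77.4 CPM) 146 and miR-133a (6.23 CPM) 277. The median of all detected miRNAs was 6.58 CPM and their 90th percentile 1022 CPM. Within single libraries, miR-1 ranked between 45 and 71. The order of miR-206 and miR-499 was not the same in every library. miR-206 was above miR-499 in SUM replicate 3 and in WIN replicates 2, 3 and 4, and below it in the other 4 libraries. CPM of different miRNAs also depend on how well each is ligated and amplified, which was not tested.

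**Figure D1:**
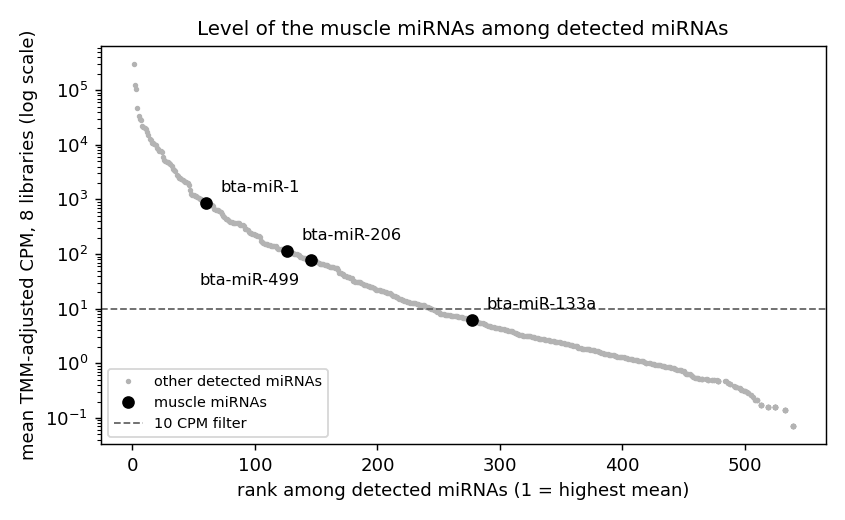
Mean TMM-adjusted CPM over the 8 libraries (vertical axis, log scale) against rank (horizontal axis) for the 545 detected miRNAs, with the 4 detected muscle miRNAs as black points and the 10 CPM filter as a dashed line. miR-1 stood at rank 60, miR-206 and miR-499 close together at 126 and 146, and miR-133a below the filter at 277.

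The partners that share a primary transcript with miR-1 and miR-206 were nearly or wholly missing. Over all libraries miR-1 had 4725 reads and miR-133a 36, a ratio of 131. In the 6 libraries with a miR-133a read the ratio was 62.5, 42.7 and 231 in SUM replicates 2, 3 and 4 and 68.9, 149 and 204 in WIN replicates 2, 3 and 4. miR-206 had 798 reads, whereas miR-133b, its neighbour in the genome, had none. miR-499 had 464 reads, and miR-208a and miR-208b, the other members that lie within myosin genes, had none. For each of the 3 miRNAs at 0, the total of 5736016 reads allows a level of up to 0.523 CPM before TMM adjustment, and single libraries allow up to 1.70 CPM (WIN replicate 3) to 12.1 CPM (SUM replicate 3). These limits, set at 3 reads, cover counting error only. miR-133c, the other bovine relative in the table, also had no reads. miR-133a, miR-133b and miR-133c are nearly identical, so reads of one could have been counted as another, and the 3 entries cannot be told apart with certainty. The list of striated muscle miRNAs was thus present only in part in FF-EVs.

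bta-miR-1 was detected in every library at 515 to 1424 CPM. It had 812, 689, 515 and 869 CPM in SUM replicates 1 to 4 and 1424, 873, 762 and 1061 CPM in WIN replicates 1 to 4. The 2 highest values were both from WIN, and the lowest from SUM, but SUM replicates 1 and 4 lay above WIN replicate 3. The mean was 721 ± 157 CPM in SUM, against 1030 ± 290 CPM in WIN (SD over 4 libraries each, two-sided exact permutation p = 0.11, where 0.029 is the smallest p that 4 against 4 libraries allow). By limma on log2(CPM + 1), fitted across all 243 miRNAs above 10 CPM, the log2 fold change of SUM over WIN was -0.50 (standard error 0.28, 95% interval -1.12 to 0.12, adjusted p = 0.32). miR-1 therefore was not called, since a call needed both a 1.5-fold change and an adjusted p under 0.1.

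The comparison of miR-1 depended on how the libraries were scaled. The deposited columns sum to 860872 to 1222033 CPM, and when each library was rescaled to the same sum, miR-1 stood at 750, 564, 598 and 767 CPM in the SUM libraries, against 1581, 942, 796 and 1096 CPM in the WIN libraries. Every SUM library was then below every WIN library (exact permutation test, two-sided, p = 0.029). The log2 fold change became -0.68 (adjusted p = 0.12 from limma), still short of the threshold. With equal sums the median log2 fold change over the 243 miRNAs was -0.17, against 0.02 as deposited. Values were lower in SUM without overlap for 25 of the 243 (10.3%), miR-1 among them, and higher for 14 (5.76%). In that fit limma called 9.05% lower and 4.53% higher (13.6% in all), and no muscle miRNA was called. WIN replicate 1, with the highest miR-1 value, also had the highest summed CPM of red blood cell miRNAs (miR-451, miR-486 and miR-144), at 25918 CPM against 2439 to 12731 CPM in the other 7. Its miR-122, a miRNA of liver, was at 16943 CPM against 2730 to 3842 CPM in SUM and 2690 to 4335 CPM in the other WIN libraries, and the part of these in the result was not tested. Without WIN replicate 1 the log2 fold change of miR-1 was -0.33 (adjusted p = 0.52 from limma), and without SUM replicate 3 as well, the shallowest library, it was -0.18 (adjusted p = 0.66).

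bta-miR-499, the miRNA of the MYH7B gene, ran the other way. It had 100.4, 100.5, 60.3 and 112 CPM in SUM replicates 1 to 4 and 30.6, 77.3, 76.0 and 62.4 CPM in WIN replicates 1 to 4. All SUM libraries but replicate 3 were above all WIN libraries. The means were 93.3 ± 22.6 CPM in SUM, against 61.6 ± 21.7 CPM in WIN (SD over 4 libraries each, two-sided exact permutation p = 0.11). The log2 fold change was 0.64 (standard error 0.36, 95% interval -0.16 to 1.44, adjusted p = 0.32 from limma), so miR-499 did not pass either. SUM replicate 3 and WIN replicate 1, the lowest libraries of their seasons for miR-499, held only 15 and 8 of its reads and were the shallowest of the 8. Once SUM replicate 3 was left out, every SUM value exceeded every WIN value (exact permutation p = 0.029), but miR-499 was not called by limma (log2 fold change 0.83, adjusted p = 0.16).

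bta-miR-206 varied far more between libraries than between seasons. It had 18.8, 92.3, 249 and 36.4 CPM in SUM replicates 1 to 4 and 26.8, 176, 252 and 71.1 CPM in WIN replicates 1 to 4. Each season thus held a library near 250 CPM and another under 30 CPM, a 13.2-fold span in SUM and a 9.40-fold span in WIN. Over the 8 libraries the highest value was 13.4 times the lowest, compared with 2.77 times for miR-1, 3.65 times for miR-499 and a median of 3.52 times for the 243 tested miRNAs. By the SD of log2(CPM + 1), miR-206 ranked 25 among the 243, miR-499 129 and miR-1 192. The span was larger than counting error. The 9 reads of SUM replicate 1 give a 95% Poisson interval of 8.61 to 35.7 CPM and the 62 reads of SUM replicate 3 one of 191 to 320 CPM, and in WIN the 7 reads of replicate 1 give 10.8 to 55.2 CPM and the 444 reads of replicate 3 give 229 to 276 CPM.

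The means of miR-206 were 99.2 ± 105 CPM in SUM, against 131 ± 102 CPM in WIN (SD over 4 libraries each, two-sided exact permutation p = 0.74), and the seasons overlapped over most of their range. The log2 fold change was -0.59 (standard error 0.81, 95% interval -2.38 to 1.19, adjusted p = 0.71 from limma). The width of this interval is set by the spread between pools, and as a fold change it runs from 0.193 to 2.28. It covers no change as well as lower and higher levels in SUM, so this fit does not settle the direction. Without the 2 shallowest libraries, SUM replicate 3 and WIN replicate 1, which were the highest of SUM and the lowest of WIN, miR-206 passed the limma thresholds as lower in SUM (log2 fold change -1.85, adjusted p = 0.077, n = 3 each). The remaining values still overlapped, and of the 241 miRNAs tested in this way 4.56% were called lower and 9.96% higher (14.5% in all).

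bta-miR-133a was at the edge of detection, with 0, 8, 3 and 3 reads in SUM replicates 1 to 4 and 0, 10, 9 and 3 reads in WIN replicates 1 to 4. In CPM these were 0, 11.0, 12.1 and 3.77 in SUM and 0, 12.7, 5.11 and 5.20 in WIN. Both libraries without a read, replicate 1 of each season, allow up to 6.28 CPM in SUM and 11.5 CPM in WIN, and so may hold as much as some of the others. No difference was detectable at this depth (6.71 ± 5.80 CPM in SUM, against 5.74 ± 5.22 CPM in WIN, SD over 4 libraries each, exact permutation test, two-sided, p = 0.91). miR-133a was below the 10 CPM filter and was not among the 243 miRNAs of the limma fit.

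**Figure D2:**
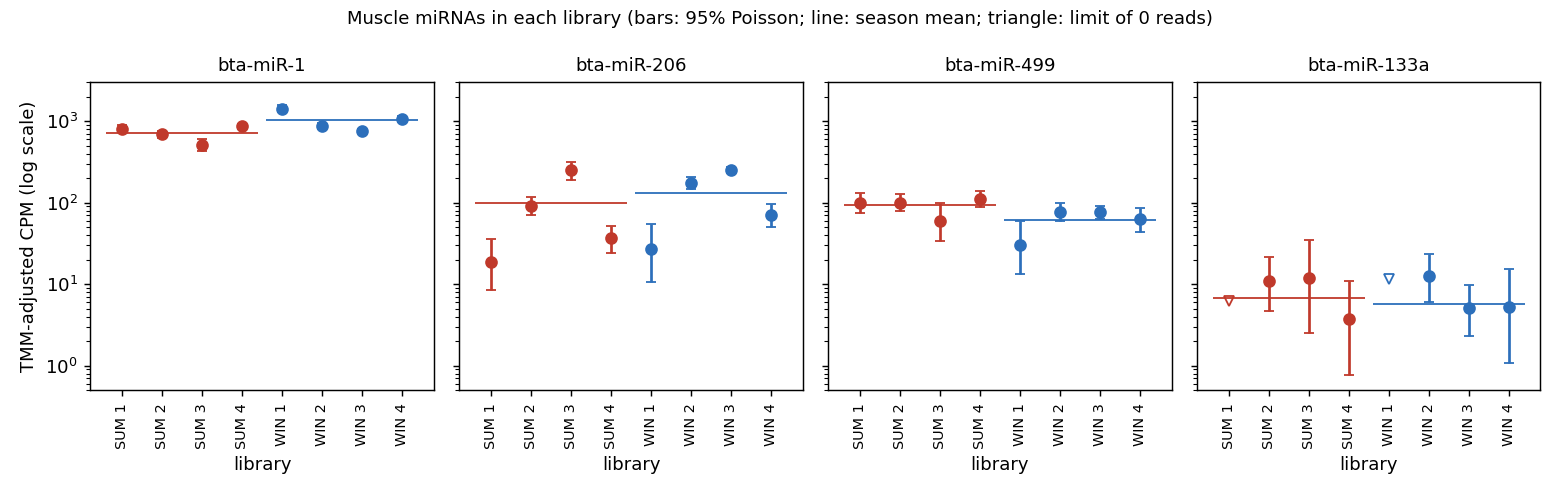
TMM-adjusted CPM (log scale) of the 4 detected muscle miRNAs in each SUM (red) and WIN (blue) library, with 95% Poisson intervals of the reads as bars, the season mean as a line and the limit of 3 reads as an open triangle where no read was found. The seasons overlapped for all 4 miRNAs, and miR-206 spanned 18.8 to 252 CPM.

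Of the 3 tested muscle miRNAs none was called by limma, and none had an unadjusted p below 0.05. edgeR and DESeq2 on the recovered reads also called none of the 3. Over all 243 miRNAs, 5.35% were called higher and 2.47% lower in SUM, a background at which 0 of 3 says little about the muscle miRNAs. The signs were negative for miR-1 and miR-206 and positive for miR-499, and kept their direction after rescaling to equal sums.

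The opposite signs of miR-1 and miR-499 left a ratio that no scaling of libraries can change. miR-1 had 8.08, 6.85, 8.53 and 7.78 times the reads of miR-499 in SUM replicates 1 to 4, against 46.5, 11.3, 10.03 and 17.0 times in WIN replicates 1 to 4. Every SUM library was below every WIN library, and the SUM libraries lay close together (7.81 ± 0.712, SD, n = 4) while WIN replicate 1, with 8 miR-499 reads, stood far above the rest. The ratio was formed after the values had been seen, and no test was made on it.

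**Figure D3:**
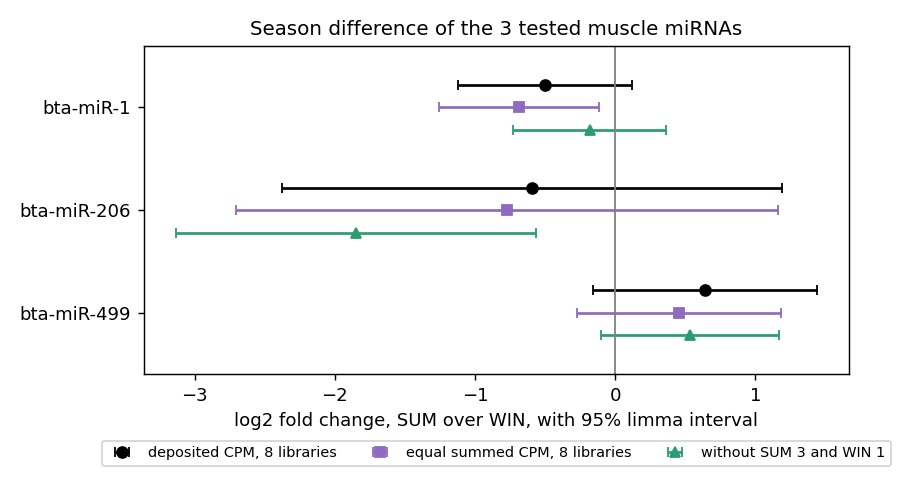
Log2 fold change of SUM over WIN (horizontal axis) with 95% limma intervals for miR-1, miR-206 and miR-499, from the deposited CPM (circles), from equal summed CPM (squares) and without SUM replicate 3 and WIN replicate 1 (triangles). The deposited CPM give intervals that include 0 for all 3, whereas those of miR-1 with equal sums (-1.26 to -0.11) and of miR-206 without the 2 libraries (-3.13 to -0.56) do not include 0.

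Agreement between members was then examined over the 8 libraries, for the 3 pairs of miR-1, miR-206 and miR-499. None of the pairs rose and fell together. miR-1 and miR-206 gave r = -0.59 (exact permutation p = 0.12, adjusted p = 0.26 over the 3 pairs) and rho = -0.52 (exact permutation p = 0.20, adjusted p = 0.59), and r = -0.16 without the 2 libraries farthest from the median of miR-1. miR-1 and miR-499 gave r = -0.53 (exact permutation p = 0.18, adjusted p = 0.26) and rho = -0.26 (exact permutation p = 0.54, adjusted p = 0.70), and r = -0.58 without those libraries. For miR-206 and miR-499, r was 0.03 (exact permutation p = 0.96, adjusted p = 0.96), rho was -0.17 (exact permutation p = 0.70, adjusted p = 0.70) and r was 0.25 without the 2 libraries farthest from the median of miR-206. The sign for miR-1 and miR-499 rested on WIN replicate 1, and without it r was 0.16.

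Within seasons, the 2 miRNAs that share a seed ran in opposite directions. In WIN the libraries ordered from the highest to the lowest miR-1 (replicates 1, 4, 2 and 3) were ordered from the lowest to the highest miR-206. In SUM the order was the same except that replicates 1 and 4 changed places for miR-1. The correlation of the deviations from the season means was r = -0.95 for miR-1 and miR-206 (exact permutation within seasons, 576 arrangements, p = 0.0035, adjusted p = 0.010 over the 3 pairs). It was -0.27 for miR-1 and miR-499 (exact permutation p = 0.55) and 0.20 for miR-206 and miR-499 (exact permutation p = 0.65), with an adjusted p of 0.65 for both. This permutation test within seasons was added after the values had been seen, and over all 8 libraries together the same pair did not pass. Among the 242 other tested miRNAs, miR-206 had the lowest such r with miR-1 (median 0.02), whereas the lowest with miR-206 was that of miR-449a (-0.97), followed by miR-1 (median -0.02). Leaving out any single library gave r between -0.998 and -0.93 for miR-1 and miR-206, while without the 2 shallowest libraries r was -0.85 (exact permutation p = 0.083).

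In the deposited CPM, the sum of miR-1 and miR-206 varied less, relative to its mean, than either of them. It was 831, 781, 764 and 906 CPM in SUM replicates 1 to 4 and 1451, 1049, 1014 and 1132 CPM in WIN replicates 1 to 4. Its coefficient of variation was 7.73% in SUM and 17.2% in WIN, compared with 21.7% and 28.2% for miR-1 and 106% and 77.4% for miR-206. miR-1 made up 97.7%, 88.2%, 67.4% and 96.0% of this sum in SUM reads and 98.2%, 83.2%, 75.2% and 93.7% in WIN reads. The 95% Wilson intervals of the extremes were 60.4% to 73.6% in SUM replicate 3 and 96.2% to 99.1% in WIN replicate 1, so the spread between libraries was larger than counting error. Between seasons the share did not separate (87.3% ± 13.9 in SUM, against 87.6% ± 10.4 in WIN, SD over 4 libraries each, two-sided exact permutation p = 0.97). miR-1 and miR-206 have similar sequences, and whether reads of one were counted as the other was not tested. The sum was formed after the values had been seen and carries no test. Its variation with equal summed CPM was not computed, so the smaller variation is shown for the deposited scaling only. Scaling alters the spread of miR-1 itself, which ran from 515 to 869 CPM in SUM as deposited and from 564 to 767 CPM with equal sums. In WIN miR-1 ran from 762 to 1424 CPM as deposited and from 796 to 1581 CPM with equal sums. With equal sums, miR-206 was at 17.4, 75.5, 290 and 32.1 CPM in the SUM libraries, beside 750, 564, 598 and 767 CPM of miR-1. In the WIN libraries miR-206 was then at 29.7, 190, 263 and 73.4 CPM, beside 1581, 942, 796 and 1096 CPM of miR-1.

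**Figure D4:**
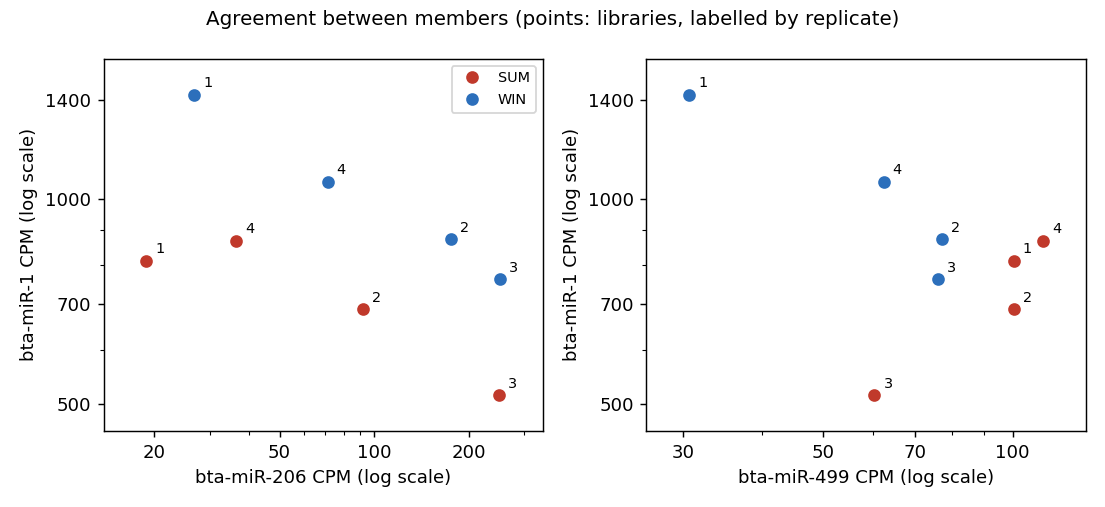
CPM of miR-1 against miR-206 (left) and against miR-499 (right) in the 8 libraries, both axes on log scales, with SUM in red, WIN in blue and replicate numbers beside the points. In each season the libraries with more miR-206 had less miR-1, with the exception of SUM replicates 1 and 4, whereas miR-499 showed no common trend with miR-1.

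Each of the 3 muscle miRNAs had other nearest relatives in pattern. Among the 242 other tested miRNAs, those most like miR-1 by Pearson's r of log2(CPM + 1) over the 8 libraries were let-7g (r = 0.82, rho = 0.83), miR-181a (r = 0.80, rho = 0.83) and miR-2431-5p (r = 0.78, rho = 0.57). For miR-206 they were miR-106b (r = 0.87, rho = 0.93), miR-339a (r = 0.86, rho = 0.90) and miR-2308 (r = 0.79, rho = 0.76). For miR-499 they were miR-16a (r = 0.95, rho = 0.90), miR-504 (r = 0.95, rho = 0.86) and miR-2376 (r = 0.94, rho = 0.86). No muscle miRNA was among the 3 most like another, and these values carry no p since they were picked as the highest. Of the 9, miR-339a, miR-2308, miR-2376 and miR-2431-5p averaged under 20 CPM in both seasons, where single reads weigh heavily.

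The muscle miRNAs were also set beside 24 other miRNAs known to act in muscle development in mammals but made in many tissues, of which 23 were detected and 22 tested. By limma 2 were higher in SUM, 2 were lower and 18 did not pass, with a median log2 fold change of 0.30 compared with 0.02 over all 243. The 4 calls among 22 are set beside 7.82% called among all 243, and these miRNAs were listed with earlier results of these data known. miR-24-3p, which promotes myoblast differentiation in mice, had 5530, 8505, 5519 and 7308 CPM in the SUM libraries, against 2462, 2293, 4124 and 3241 CPM in those of WIN. Its log2 fold change was 1.16 (adjusted p = 0.060 from limma). miR-222, which holds back myoblast differentiation in rodents, had 249, 317, 342 and 377 CPM in the SUM libraries, against 172, 128, 119 and 173 CPM in those of WIN. Its log2 fold change was 1.11 (adjusted p = 0.060 from limma). In the authors' qRT-PCR on independent samples, miR-222 kept this direction but did not reach statistical significance. In the other direction, miR-181a, which acts on homeobox genes during mouse myoblast differentiation, had 113, 106, 125 and 188 CPM in the SUM libraries, against 345, 277, 192 and 341 CPM in those of WIN. Its log2 fold change was -1.11 (adjusted p = 0.068 from limma). miR-26a, which promotes myoblast differentiation in mice, had 21518, 21818, 20126 and 29714 CPM in the SUM libraries, against 29892, 52105, 33974 and 56456 CPM in those of WIN. Its log2 fold change was -0.85 (adjusted p = 0.094 from limma). For these 4 the seasons did not overlap, as held for 16.0% of all 243 miRNAs (8.23% higher and 7.82% lower in SUM). They were named because limma called them in the same libraries, so the lack of overlap adds no further information. The 4 are abundant in many cell types, and 2 of them stood in each direction.

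The summed CPM of the muscle miRNAs, 837 to 1021 in SUM and 1095 to 1482 in WIN, lay below those of most marker lists of other tissues. They were above the sum of white blood cell miRNAs in every library but SUM replicate 4. miR-143 and miR-145, of smooth muscle and stroma, summed to 37607 to 55737 CPM in SUM and 31814 to 56745 CPM in WIN, and neither was called. The endothelial pair miR-126-3p and miR-126-5p summed to 1065 to 2418 CPM in SUM and 2290 to 3595 CPM in WIN, with 1 of the 2 called lower, beside 2.47% of all 243. Red blood cell miRNAs summed to 5262 to 12731 CPM in SUM and 2439 to 25918 CPM in WIN, and none of the 2 tested was called. White blood cell miRNAs summed to 728 to 1167 CPM in SUM and 528 to 777 CPM in WIN, with 1 of 3 tested called higher, beside 5.35% of all 243. Epithelial miRNAs summed to 5831 to 14149 CPM in SUM and 4299 to 9279 CPM in WIN, with 1 of 5 called higher, and miR-122 of liver was not called. The part of all these in the values of miR-1, miR-206 and miR-499 was not tested. In such a fluid, fewer vesicles from a cell type and fewer miRNA copies per vesicle cannot be told apart.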

How the data were processed

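Reads of 8 FF-EV small-RNA libraries had been trimmed, mapped to ARS-UCD1.2 and annotated against bovine miRBase miRNAs with CLC Genomics Workbench by the authors, who deposited TMM-adjusted CPM, a signal per miRNA and library. The submitters' processing notes also name bcl2fastq, Bowtie2 2.2.2 and DESeq2. Each library's values were divided by the smallest one above 0 to give reads, and 100% of values came out whole within 0.001. Rows were matched by name. Replicates are pools of 2 cows.

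SUM and WIN were set against each other by limma 3.58.1 (R 4.3.3, eBayes with trend) on log2(CPM + 1) over all 243 miRNAs with a mean above 10 CPM, with Benjamini-Hochberg adjustment, with calls where the change was over 1.5-fold at an adjusted p under 0.1. Fold changes on this scale understate those of low miRNAs. Single values were tested by exact permutation and correlations by exact permutation of pairings (Python 3.11.15, scipy 1.17.1). Pairs needed a median of 10 reads per miRNA. Intervals cover counting error only, since reads without molecular identifiers are not independent molecules. Scripts were tested on simulated data. edgeR 4.0.16 and DESeq2 1.42.0 were run on the recovered reads as alternatives, beside other pseudocounts, filters and scalings, a replicate block and left-out libraries.

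The miRNAs named are the 7 members, the 3 most like each tested member, and called miRNAs of a list of 24 of muscle development. The members and lists were chosen with earlier results of these data known.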

Additional observations from a re-analysis of the deposited data

How the results depend on the processing

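The log2 fold changes of miR-1, miR-206 and miR-499 kept their direction under every alternative, and none was called except miR-206 without the 2 libraries of lowest depth (-1.85, adjusted p = 0.077 from limma), where miR-1 was at -0.18 and miR-499 at 0.53 (adjusted p = 0.66 and 0.24). Leaving out single libraries gave -0.63 to -0.33 for miR-1, -1.25 to -0.03 for miR-206 and 0.34 to 0.83 for miR-499. With the replicate number as a block they were -0.50, -0.59 and 0.64 (adjusted p = 0.24, 0.29 and 0.32 from limma), and no call of these 3 changed. It is not stated whether libraries of the same number hold the same cows, so the main fit did not pair the samples by number. The deviations of same-numbered libraries correlated at -0.02, 0.30, 0.06 and 0.24 for replicates 1 to 4. Differently numbered libraries were not correlated for comparison, so these values cannot show whether the numbers pair the samples.

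Over all 243 miRNAs, 13 were called higher and 6 lower. The counts were 6 and 2 without the abundance filter and above 1 CPM, 20 and 15 with edgeR, 23 and 20 with DESeq2, 11 and 22 with equal summed CPM, 15 and 10 with the replicate block, 24 and 11 without the 2 shallowest libraries, and 1 and 0 at an adjusted p below 0.05. Leaving out single libraries gave 0 to 23 higher and 0 to 7 lower.

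In the exact permutation tests on single values, the difference of SUM minus WIN for miR-1 was -434 CPM with equal summed CPM (exact p = 0.029), against -309 CPM as deposited, -109 CPM without the shallowest 2 and -398 to -178 CPM without single libraries. It passed the threshold without WIN replicate 3 (exact p = 0.029). For miR-499 it was 21.4 to 42.7 CPM without single libraries, for miR-206 -82.3 to 7.90 CPM and for miR-133a -0.95 to 3.28 CPM. The sign of miR-206 changed without WIN replicate 3, and that of miR-133a without SUM replicate 2 (-0.47 CPM), SUM replicate 3 (-0.82 CPM), WIN replicate 1 (-0.95 CPM) or both shallowest libraries (-2.73 CPM). For the share of miR-1 in miR-1 plus miR-206 the difference of -0.25 points became 9.93 without the shallowest 2 and -4.38 to 6.40 without single libraries (6.40 without SUM replicate 3, 3.28 without WIN replicate 1 and 1.80 without WIN replicate 4). The cause of these changes was not tested.

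Correlations without single libraries were -0.75 to -0.42 for miR-1 and miR-206, -0.89 to 0.16 for miR-1 and miR-499 and -0.66 to 0.26 for miR-206 and miR-499. With equal summed CPM, miR-1 and miR-499 gave -0.76 (exact permutation p = 0.039). miR-206 and miR-499 gave -0.17 on the CPM scale and -0.55 without the shallowest 2. For the deviations within seasons, whose test and alternatives were chosen after the data were seen, miR-1 and miR-206 gave -0.90 on the CPM scale, -0.83 with equal summed CPM and -0.85 without the shallowest 2. For miR-1 and miR-499 these ran from -0.85 to 0.63 without single libraries (0.63 without WIN replicate 1), and for miR-206 and miR-499 they gave -0.080 on the CPM scale, 0.78 without SUM replicate 3 and -0.56 without WIN replicate 1. Depth limits miR-133a in all libraries, and miR-499 in the shallowest 2 (15 and 8 reads). miR-206 had the fewest reads in SUM replicate 1 (9) and WIN replicate 1 (7).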

Other observations

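The replicates of miR-206 fell into the same order in both seasons, which was noticed after the values had been seen. From the lowest to the highest, replicates 1, 4, 2 and 3 stood at 18.8, 36.4, 92.3 and 249 CPM in the SUM libraries, against 26.8, 71.1, 176 and 252 CPM in the WIN libraries. The ratio of SUM to WIN at the same number was 0.703, 0.513, 0.524 and 0.990 in that order, much narrower than the spread over libraries of 1 season. An identical order in both seasons was found for 16 of the 243 tested miRNAs (6.58%), and for neither miR-1 nor miR-499. The labels do not say whether a number stands for the same cows in both seasons, although the same cows were used. Over all 243 miRNAs, the deviations of same-numbered libraries were not compared with those of differently numbered ones. They therefore do not settle whether a number stands for the same cows.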
